A study of Mus musculus with 12 samples.

Results

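The genes described here carry out DNA replication and mitosis. They are a list of 48 named genes, drawn up with earlier results of these data known, and every probe whose annotated gene symbol is on the list was taken. Of the 48 listed, 46 had a probe among the 19057 gene symbols of the array. No probe carried the symbol Mki67, the gene of the proliferation antigen Ki-67, or Ccnb1, which encodes cyclin B1. Another 4 genes, Ccnb2, Bub1, Cenpe and Kif20a, had probes that were above background on 0 of the 12 arrays. The remaining 42 genes were tested together with all other genes above background, 11152 in total. Of these 42, 41 were above background on every array, and Ube2c was above background on all arrays except that of cHet uterus replicate 2.

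RNA came from the reproductive tract of female mice at postnatal day 3, with CD-1, C57BL/6 and S129/5 in their mixed background, and was hybridised as biotin-labelled cRNA to Illumina 1-colour bead arrays. The 3 groups, with 4 pools of 3 mice each, were the uterus and the vagina of conditional heterozygotes (cHet, Trp63 flox/wt ; Pax2-cre) and the vagina of conditional knockouts (cKO, genotype given as Trp63 flox/floxt ; Pax2-cre). All 3 groups carry Pax2-cre and at least 1 floxed Trp63 allele, so no group is wild type, and recombination is limited to cells in which the Pax2 promoter has been active. Trp63 encodes p63, a transcription factor known for its part in the formation and upkeep of stratified epithelia. The comparison of the cKO with the cHet vagina addresses the loss of Trp63, and that of the cHet vagina with the cHet uterus addresses the organ.

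A dividing cell passes a fixed order of steps. In G1 the D-type cyclins and then cyclin E with their kinases release E2F factors, which switch on the genes of DNA replication, and origins are licensed when Cdc6 and Cdt1 load the Mcm helicase. In mitosis, Cdk1 with its cyclins, the Aurora and Polo kinases, the kinetochore and the spindle motors divide the chromosomes, and the anaphase promoting complex with Cdc20 ends the process. Transcripts of these genes are used as a readout of proliferation, since most are abundant only in cycling cells.

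Many of these genes are known to be controlled through short words in their promoters: E2F sites in the genes of G1 and S phase, and the cell cycle homology region (CHR), usually beside CCAAT boxes bound by NF-Y, in the genes of G2 and mitosis. RefSeq windows of the assembly GRCm38.p6, from 250 bases before the annotated transcription start to 50 bases from the start on, were at hand for 39 of the 48 genes, in 40 windows of 300 bases. Windows were searched on both strands for the E2F words TTCCCGC or TTGGCGC or TTCGCGC or TTGCCGC, for the CHR word TTTGAA and for CCAAT, with overlaps between words allowed. An E2F word was present in 15 of the 40 windows (37.5%), against 16.2% of the windows of all genes tested and 9.57% of all windows. The CHR word was present in 17 (42.5%), against 11.9% and 17.9%, and CCAAT in 29 (72.5%), against 37.6% and 37.4%. The words were spread unevenly over the roles. E2F words were found in 6 of the 9 origin licensing and helicase genes with a window (Cdc6, Cdt1, Mcm3, Mcm5, Mcm6 and Mcm7) and in 1 of the 9 chromosome, kinetochore and spindle genes (Mki67). The CHR word was found in 2 of the former 9 (Cdc45 and Mcm2), in 7 of the latter 9, in 4 of 7 genes of mitotic kinases and the checkpoint and in both genes of mitotic exit, Cdc20 and Ube2c. These matches describe the letters in a window and not the binding of a factor, and no binding was measured.

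**Figure D1:**
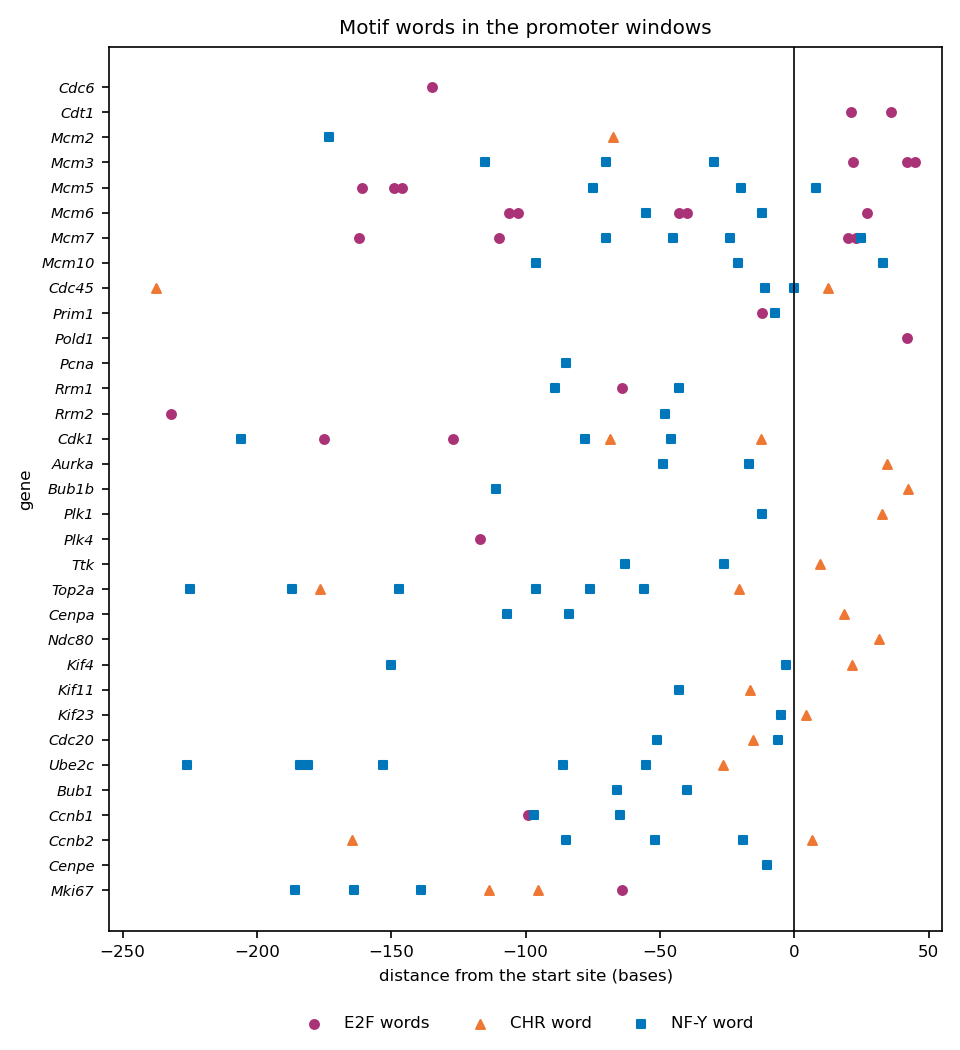
Position of each word in the promoter windows of the genes that hold at least 1, as distance in bases from the annotated transcription start (vertical line); circles are E2F words, triangles the CHR word and squares the NF-Y word. E2F words lie mostly in the upper rows of replication genes and CHR words in the lower rows of mitotic genes.

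The following 4 windows are shown because 3 of them belong to genes that differed between groups below, and that of Cdk1 holds all 3 kinds of word. They are written in the direction of transcription with every match in capitals, on either strand, so that a CCAAT on the opposite strand reads ATTGG. Cdk1 (minus strand, chr10:69352863-69353162) has 2 E2F words, 2 CHR words and 3 CCAAT boxes. Aurka (minus strand, chr2:172370521-172370820) has 2 CCAAT boxes and a CHR word, which lies past the start site. Cdc6 (plus strand, chr11:98907901-98908200) has 1 E2F word on the opposite strand, and the window of Ccne1 (minus strand, chr7:38107441-38107740) has none of the words. The window of E2f1, a further gene that differed, also has none of the words. It may belong to an alternative start and is not shown, and no window was at hand for Mcm4.
Cdk1: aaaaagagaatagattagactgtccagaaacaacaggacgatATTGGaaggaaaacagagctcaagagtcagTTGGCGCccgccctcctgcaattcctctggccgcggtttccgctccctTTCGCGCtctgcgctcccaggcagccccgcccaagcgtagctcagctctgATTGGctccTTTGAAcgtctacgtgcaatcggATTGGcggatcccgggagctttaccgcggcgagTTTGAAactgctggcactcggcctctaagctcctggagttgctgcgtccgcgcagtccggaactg
Aurka: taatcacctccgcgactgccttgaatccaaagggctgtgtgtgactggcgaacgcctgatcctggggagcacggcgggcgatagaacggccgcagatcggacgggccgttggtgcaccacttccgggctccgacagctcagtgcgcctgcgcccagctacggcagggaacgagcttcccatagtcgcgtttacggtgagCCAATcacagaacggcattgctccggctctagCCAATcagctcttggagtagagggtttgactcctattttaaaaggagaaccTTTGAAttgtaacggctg
Cdc6: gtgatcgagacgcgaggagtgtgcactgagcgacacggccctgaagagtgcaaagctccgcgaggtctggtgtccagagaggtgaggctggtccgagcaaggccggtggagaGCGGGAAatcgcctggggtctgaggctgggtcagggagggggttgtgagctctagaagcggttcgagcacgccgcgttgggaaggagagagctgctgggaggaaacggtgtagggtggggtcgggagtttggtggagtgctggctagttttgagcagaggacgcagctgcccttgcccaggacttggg
Ccne1: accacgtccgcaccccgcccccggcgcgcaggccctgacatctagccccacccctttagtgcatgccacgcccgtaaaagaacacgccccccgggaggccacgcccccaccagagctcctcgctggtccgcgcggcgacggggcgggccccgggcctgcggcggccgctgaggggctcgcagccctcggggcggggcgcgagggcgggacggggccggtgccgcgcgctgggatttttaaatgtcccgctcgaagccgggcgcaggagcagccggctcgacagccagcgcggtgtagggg

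Few of the 42 genes were called in any comparison, and between the vaginal groups their counts were near those of all genes. Between the cKO and the cHet vagina, 0 of 42 genes passed the test, against 0.386% of all genes tested, 0.0538% higher and 0.332% lower in the cKO vagina (limma, Benjamini-Hochberg adjusted over 11152 genes, threshold 0.05, as for every call below). At an unadjusted p under 0.05 there were 4 of 42 (9.52%), against 7.07% of all genes. The 95% confidence interval of the difference lay within 2-fold in either direction for 41 of the 42 genes (97.6%), all but Ube2c. This share was near the 96.9% of all genes and does not set the 42 genes apart. Intervals apply to each gene on its own and to values on this scale, on which the differences of dim probes depend on the background correction. Between the cHet vagina and the cHet uterus, 2 of 42 genes (4.76%) passed, both lower in the vagina (Ccne1 and E2f1), against 18.6% of all genes in either direction, 9.16% lower and 9.44% higher. Between the cKO vagina and the cHet uterus, 4 of 42 (9.52%) passed, all lower in the cKO vagina (Ccne1, Cdc6, Aurka and Mcm4), against 18.4% of all genes in either direction, 9.44% lower and 8.92% higher. The interval lay within 2-fold for 40 of 42 genes in each of these organ comparisons, against 84.7% and 84.8% of all genes. In the second of them the groups did not overlap for the 4 called genes (9.52%) and for 21.7% of all genes. Both organ comparisons use the same 4 uterus pools, so their results are not independent.

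**Figure D2:**
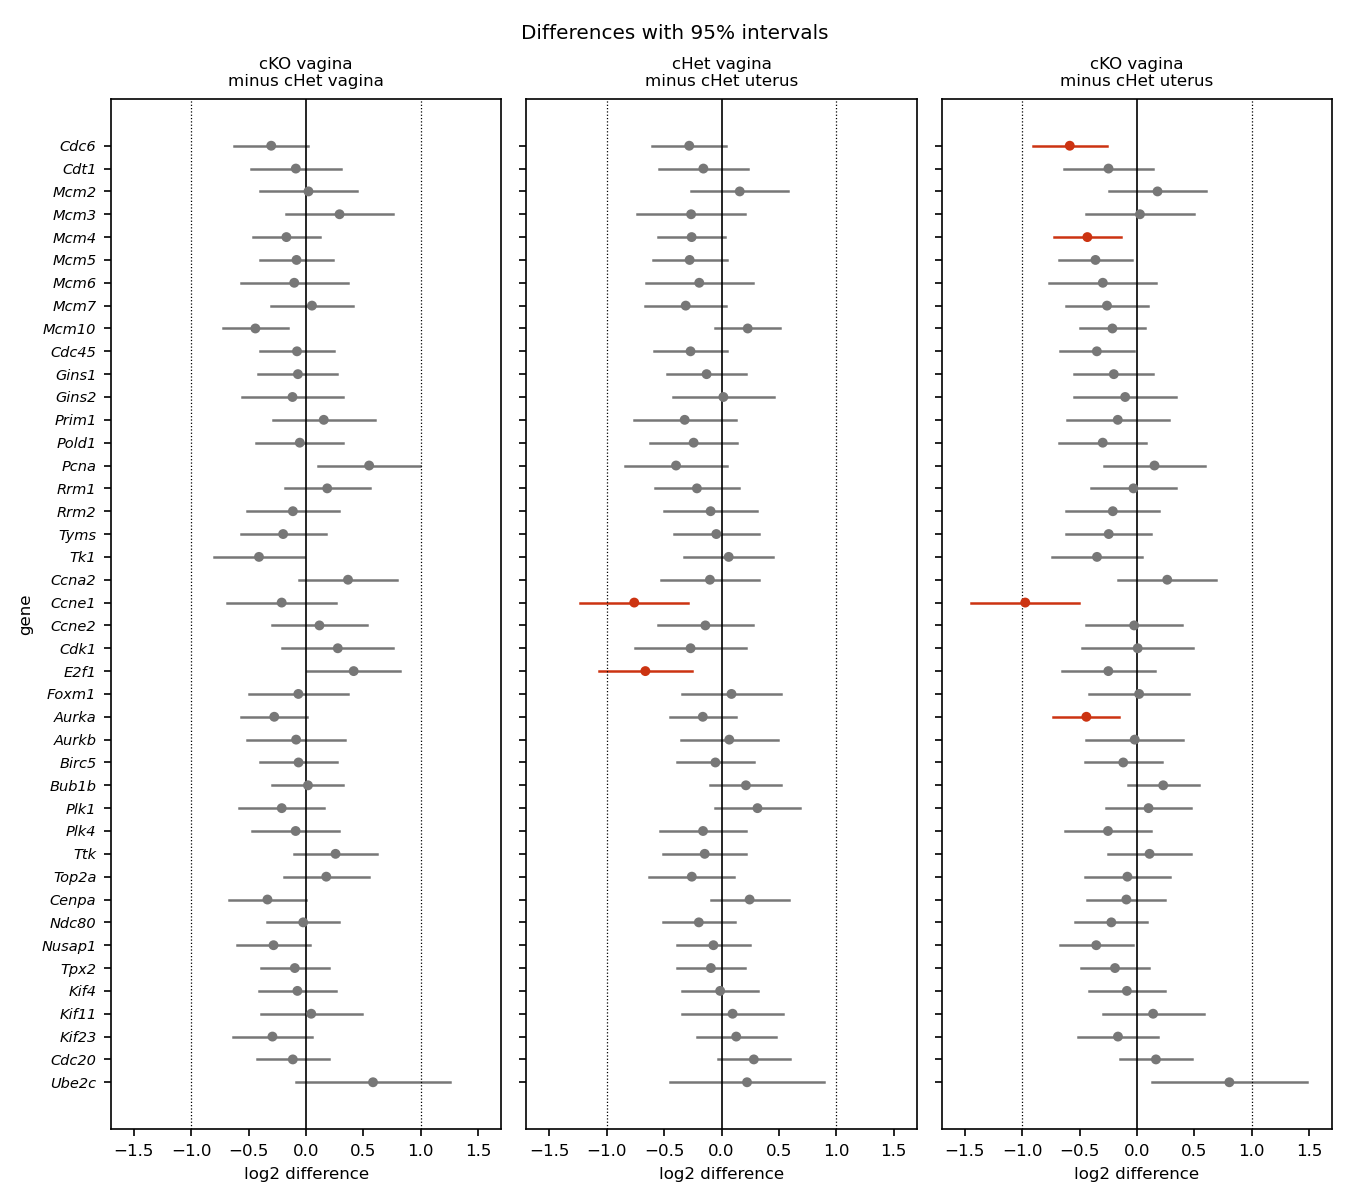
Difference in log2 value for each of the 42 genes in the 3 comparisons, with 95% confidence intervals from limma; red marks genes past an adjusted p of 0.05 and dotted lines a 2-fold difference either way. No gene is red for the cKO against the cHet vagina, and the red genes of the organ comparisons all lie left of 0.

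Medians of the 42 genes were below those of all genes in each comparison, under every scaling tried. The median difference over the 42 genes was -0.078 for the cKO against the cHet vagina, where that of all genes was -0.0089. It was -0.135 for the cHet vagina against the uterus (all genes -0.0154) and -0.166 for the cKO vagina against the uterus (all genes -0.0165). These are differences of log2 values after quantile normalization, and the direction of the medians depends on the scaling. With the authors' own scaling alone, the medians over all genes moved to 0.115, 0.0443 and 0.171, and those of the 42 genes to 0.0649, -0.0451 and 0.0194. Relative to all genes the 42 genes then stood at -0.05, -0.0894 and -0.152. The split of higher and lower genes moved with it, from 15 and 27 to 29 and 13 for the cKO against the cHet vagina, from 13 and 29 to 16 and 26 for the cHet vagina against the uterus, and from 12 and 30 to 23 and 19 for the cKO vagina against the uterus. Over all genes, 48.1%, 47.7% and 47.6% were above 0 in the 3 comparisons. No test was made of these medians.

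The mean of the 42 genes in each pool, each gene centred on its mean over the 12 pools, lay between 0.0394 and 0.127 in the 4 uterus pools, between -0.111 and 0.0428 in the cHet vagina and between -0.157 and 0.0518 in the cKO vagina. The uterus pools reached the highest values, but cHet vagina replicate 4 and cKO vagina replicate 4 lay above the lowest uterus pool, so the groups overlapped. Within the cKO vagina, replicates 1 and 3 were low (-0.157 and -0.126) and replicates 2 and 4 were higher (0.0269 and 0.0518). The uterus had the highest group mean for 24 of the 42 genes and the cKO vagina the lowest for 24, while over all genes the uterus was highest in 42.6% and the cKO vagina lowest in 32.2%. The median SD within groups was 0.258 over the 42 genes and 0.237 over all genes, ranging from 0.143 for Mcm10 to 0.56 for Ube2c.

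**Figure D3:**
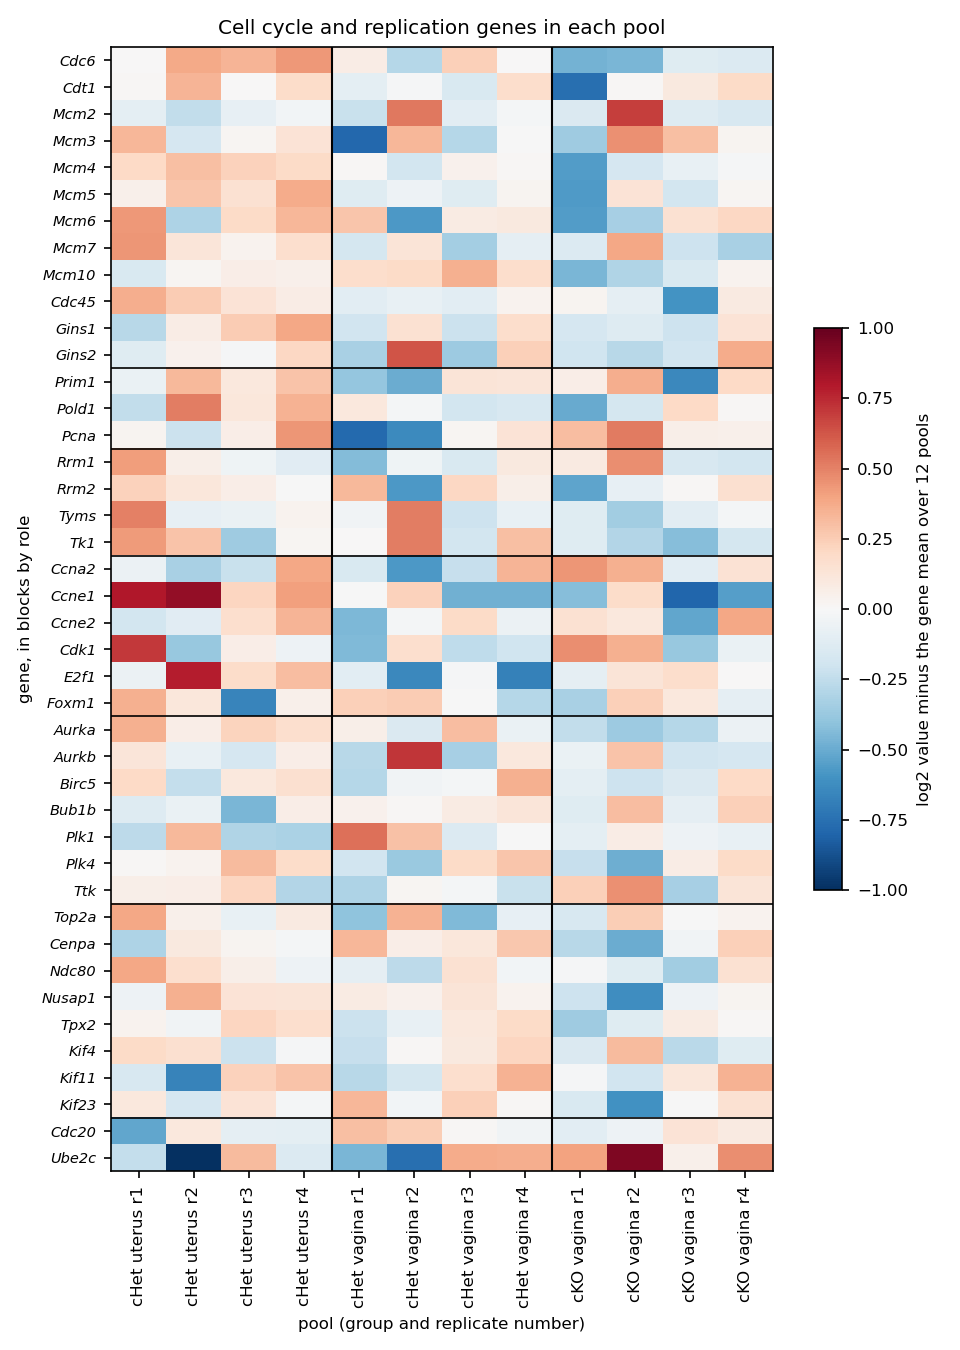
Log2 value of each of the 42 genes in each of the 12 pools, minus the gene's mean over all pools; rows are in blocks by role and vertical lines part the groups. Few rows split by group. Ccne1, high in the uterus pools, has the largest difference, with cHet vagina replicate 2 in the uterus range. Mcm4 parts the uterus from all vaginal pools by a smaller difference. Single pools such as cKO vagina replicate 1 or 2 stand out in several rows.

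Values below are log2 values after background correction and quantile normalization, listed for replicates 1 to 4 of each group, and differences are of such values. Cdc6 and Cdt1 load the Mcm helicase onto origins of replication. Cdc6 measured 7.61, 7.99, 7.95 and 8.05 in the cHet uterus, 7.68, 7.33, 7.85 and 7.62 in the cHet vagina and 7.14, 7.16, 7.49 and 7.47 in the cKO vagina. Every cKO pool was below every uterus pool, with the cHet vagina between them and overlapping both. The group means were 7.90 ± 0.20, 7.62 ± 0.22 and 7.32 ± 0.19 (SD, n = 4 each). The cKO vagina differed from the uterus by -0.59 (SE 0.15, limma adjusted p = 0.0122), a 1.50-fold lower level, and this call held on leaving out any 1 pool but not with the authors' scaling alone (-0.35, adjusted p = 0.161). Against the cHet vagina the difference was -0.30 (95% interval -0.63 to 0.02, adjusted p = 0.752). In a bulk sample, fewer cells that express a gene and less RNA per cell cannot be told apart, here and for every gene below. Cdt1 measured 8.03, 8.36, 8.02 and 8.20 in the cHet uterus, 7.92, 8.01, 7.86 and 8.19 in the cHet vagina and 7.27, 8.03, 8.11 and 8.21 in the cKO vagina. Apart from the low cKO replicate 1 its pools overlapped between all groups, and no comparison was called (cKO against cHet vagina -0.48 to 0.30).

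The Mcm proteins encoded by Mcm2 to Mcm7 form the ring of the replicative helicase, and of these 6 genes Mcm4 alone was called in a comparison. Its call fell in the cKO vagina against the uterus, where 18.4% of all genes were called. Mcm4 measured 11.28, 11.37, 11.31 and 11.27 in the cHet uterus, 11.09, 10.89, 11.12 and 11.09 in the cHet vagina and 10.52, 10.91, 11.005 and 11.07 in the cKO vagina. The uterus pools lay above every vaginal pool of either genotype. The cKO vagina was lower than the uterus by a log2 difference of -0.43 (SE 0.14, limma adjusted p = 0.0366, 1.35-fold), and the cHet vagina differed by -0.26 (adjusted p = 0.231). This call was lost on leaving out 1 pool in 6 cases: the adjusted p was 0.0583, 0.0828, 0.0732 and 0.0648 without uterus replicates 1 to 4, and 0.123 and 0.0605 without cKO replicates 1 and 2. It was lost too with the authors' scaling alone (0.0934), cyclic loess (0.0529), only the 2 groups in the fit (0.0621) or the mean of the kept probes (-0.20, adjusted p = 0.315). Without cKO replicate 1, the lowest pool, the difference itself was -0.31. Of the other 2 kept Mcm4 probes, which were near background, neither was called (-0.03 and -0.15, adjusted p = 0.9504 and 0.636 over all kept probes).

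Mcm5 had the same order of groups. It measured 10.62, 10.85, 10.72 and 10.94 in the cHet uterus, 10.45, 10.52, 10.45 and 10.60 in the cHet vagina and 10.01, 10.71, 10.39 and 10.59 in the cKO vagina. Uterus and cHet vagina pools did not overlap, but the difference of -0.28 did not pass (adjusted p = 0.251), nor did -0.36 for the cKO vagina against the uterus (adjusted p = 0.121). Groups without overlap were seen in this organ comparison for 4 of the 42 genes (9.52%; Mcm4, Mcm5, Mcm10 and Cdc45) and for 21.6% of all genes. Mcm2 measured 8.32, 8.17, 8.33 and 8.38 in the cHet uterus, 8.19, 8.94, 8.31 and 8.39 in the cHet vagina and 8.27, 9.10, 8.29 and 8.25 in the cKO vagina. Replicate 2 was high in both vaginal groups and not in the uterus, and the groups overlapped. Mcm3, Mcm6 and Mcm7 gave differences between -0.31 and 0.29 in the 3 comparisons, with no call.

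The helicase is switched on when Cdc45 and the GINS complex join it, with the help of Mcm10. Mcm10 was the gene with the smallest p of the 42 in the comparison of the cKO with the cHet vagina. It measured 8.15, 8.32, 8.37 and 8.36 in the cHet uterus, 8.48, 8.49, 8.66 and 8.48 in the cHet vagina and 7.85, 8.004, 8.15 and 8.34 in the cKO vagina. All cKO pools were below all cHet vagina pools, while the uterus lay between the 2 vaginal groups and overlapped the cKO pools. The difference was -0.44 (SE 0.13, 95% interval -0.72 to -0.16), with an unadjusted p of 0.00422 in limma and an adjusted p of 0.259, so it did not pass. It was -0.56 in replicates 1 and 2 and -0.32 in replicates 3 and 4, and the 2 other kept probes gave -0.35 and -0.05. Non-overlapping groups were seen in this comparison for 2 of 42 genes (4.76%, Mcm10 and Nusap1), against 4.33% of all genes.

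Cdc45 measured 8.01, 7.90, 7.78 and 7.72 in the cHet uterus, 7.54, 7.57, 7.54 and 7.68 in the cHet vagina and 7.67, 7.56, 7.05 and 7.74 in the cKO vagina. The uterus was above the cHet vagina in every pool, by a log2 difference that did not pass (-0.27, adjusted p = 0.267). Gins1 and Gins2, which encode GINS subunits, differed by between -0.20 and 0.02 and passed no test. Over the 12 genes of origin licensing and the helicase, 0 were called between the vaginal groups, 0 between the cHet vagina and the uterus, and 2 lower in the cKO vagina than in the uterus. Of all genes, 0.386%, 18.6% and 18.4% were called in these comparisons in either direction, with 9.44% lower in the last. The median differences of the 12 genes were -0.087, -0.227 and -0.254.

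Pcna encodes the sliding clamp of the replicative polymerases. It measured 8.25, 8.01, 8.29 and 8.67 in the cHet uterus, 7.45, 7.59, 8.24 and 8.36 in the cHet vagina and 8.53, 8.75, 8.28 and 8.27 in the cKO vagina. Replicates 1 and 2 of the cHet vagina were the lowest of all pools and replicates 1 and 2 of the cKO vagina among the highest. Replicates 3 and 4 of the vaginal groups were nearly level. The cKO against cHet vagina difference was 0.55 overall (95% interval 0.11 to 0.99, limma unadjusted p = 0.0182, adjusted p = 0.516), made up of 1.12 in replicates 1 and 2 and -0.02 in replicates 3 and 4. Fitted in replicates 1 and 2 alone, Pcna passed the test (adjusted p = 0.0376), the only 1 of the 42 genes to do so between the vaginal groups in any setting tried. Prim1, which encodes the catalytic subunit of primase, and Pold1, that of polymerase delta, were called in no comparison and differed by between -0.32 and 0.15.

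None of the 4 genes of nucleotide supply was called. Calls covered 0.386% of all genes between the vaginal groups, 18.6% for the cHet vagina and 18.4% for the cKO vagina against the uterus. Beside these shares, 0 of 4 does not set the role apart. Rrm2 encodes the small subunit of ribonucleotide reductase, which makes deoxynucleotides. It measured 6.69, 6.57, 6.53 and 6.45 in the cHet uterus, 6.78, 5.89, 6.67 and 6.52 in the cHet vagina and 5.93, 6.38, 6.47 and 6.62 in the cKO vagina. Its lowest pools were replicate 2 of the cHet vagina and replicate 1 of the cKO vagina, and the groups overlapped. Tyms, which encodes thymidylate synthase, measured 11.24, 10.65, 10.67 and 10.77 in the cHet uterus, 10.70, 11.25, 10.53 and 10.66 in the cHet vagina and 10.61, 10.38, 10.63 and 10.71 in the cKO vagina. The largest Tyms difference was -0.25, for the cKO vagina against the uterus (adjusted p = 0.397). Tk1, which encodes the thymidine kinase of cycling cells, differed by -0.41 between the vaginal groups (95% interval -0.80 to -0.02, adjusted p = 0.666). Its 4 kept probes spread by up to 0.579 in the cHet vagina against uterus comparison, and Rrm1, of the large reductase subunit, differed by between -0.21 and 0.18.

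Of the 6 tested genes of cyclins, Cdk1 and transcription factors, Ccne1 was called in both organ comparisons and E2f1 for the cHet vagina alone. Calls covered 18.6% of all genes for the cHet vagina and 18.4% for the cKO vagina against the uterus, and 0.386% between the vaginal groups. Ccne1 encodes cyclin E1, the partner of Cdk2 at the entry to S phase. It measured 6.67, 6.75, 6.08 and 6.28 in the cHet uterus, 5.86, 6.10, 5.39 and 5.39 in the cHet vagina and 5.44, 6.05, 5.07 and 5.32 in the cKO vagina. The uterus was high, the cHet vagina reached into the uterus range with replicate 2 alone, and every cKO pool was below every uterus pool. Group means were 6.44 ± 0.32, 5.68 ± 0.35 and 5.47 ± 0.42 (SD, n = 4 each). The cHet vagina was 1.69-fold below the uterus (log2 difference -0.76, SE 0.22, limma adjusted p = 0.0240), with -0.73 within replicates 1 and 2 and -0.79 within replicates 3 and 4. The cKO vagina was 1.96-fold below it (-0.97, SE 0.22, adjusted p = 0.00497), the largest difference of the 42 genes in any comparison. The vaginal groups differed by -0.21 (95% interval -0.69 to 0.26, adjusted p = 0.928).

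The size of the Ccne1 differences depended on the background: with none subtracted they were -0.39 for the cHet and -0.48 for the cKO vagina, both still past the test (adjusted p = 0.0349 and 0.0125). The 2 calls of Ccne1 were not equally firm. That of the cKO vagina against the uterus was kept in each of the 26 alternative settings, with adjusted p between 5.19e-05 and 0.0480. That of the cHet vagina was lost with the authors' scaling alone (adjusted p = 0.0723), with no filter (0.0697), without uterus replicate 1 (adjusted p = 0.0685) or 2 (0.0769) and without vagina replicate 3 (0.0750) or 4 (0.0777). Ccne1 also differed between replicates 3 and 4 and replicates 1 and 2 over all groups, by -0.56 (adjusted p = 0.00606), with the groups in the fit. This holds for 3 of the 42 genes (7.14%; Ccne1, Kif11 at 0.50 and Plk4 at 0.41), against 12.3% of all genes. The labels give no reason for such sets. Ccne2, which encodes the second cyclin E, measured 6.05, 6.12, 6.40 and 6.57 in the cHet uterus, 5.78, 6.21, 6.42 and 6.16 in the cHet vagina and 6.38, 6.33, 5.71 and 6.62 in the cKO vagina. It showed no order of groups, and the cHet vagina differed from the uterus by -0.14 (95% interval -0.56 to 0.27).

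E2f1 encodes an activating E2F factor, itself released by the cyclin kinases of G1. It measured 7.22, 8.06, 7.46 and 7.59 in the cHet uterus, 7.17, 6.63, 7.26 and 6.60 in the cHet vagina and 7.18, 7.41, 7.45 and 7.28 in the cKO vagina. The cHet vagina held the 2 lowest pools, replicates 2 and 4, while its replicates 1 and 3 were within or next to the uterus range and the cKO pools lay close together. Means were 7.58 ± 0.35 in the uterus, 6.92 ± 0.35 in the cHet vagina and 7.33 ± 0.12 in the cKO vagina (SD, n = 4 each). The cHet vagina was lower than the uterus by a log2 difference of -0.66 (SE 0.19, limma adjusted p = 0.0218, 1.58-fold). This call was lost with no filter (adjusted p = 0.0522), without uterus replicate 2 (difference -0.50, adjusted p = 0.0758) and without vagina replicate 2 (0.0723) or 4 (0.0775). The cKO vagina differed from the uterus by -0.25 (adjusted p = 0.437) and from the cHet vagina by 0.41 (95% interval 0.01 to 0.82, limma unadjusted p = 0.0460, adjusted p = 0.693), so neither passed.

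**Figure D4:**
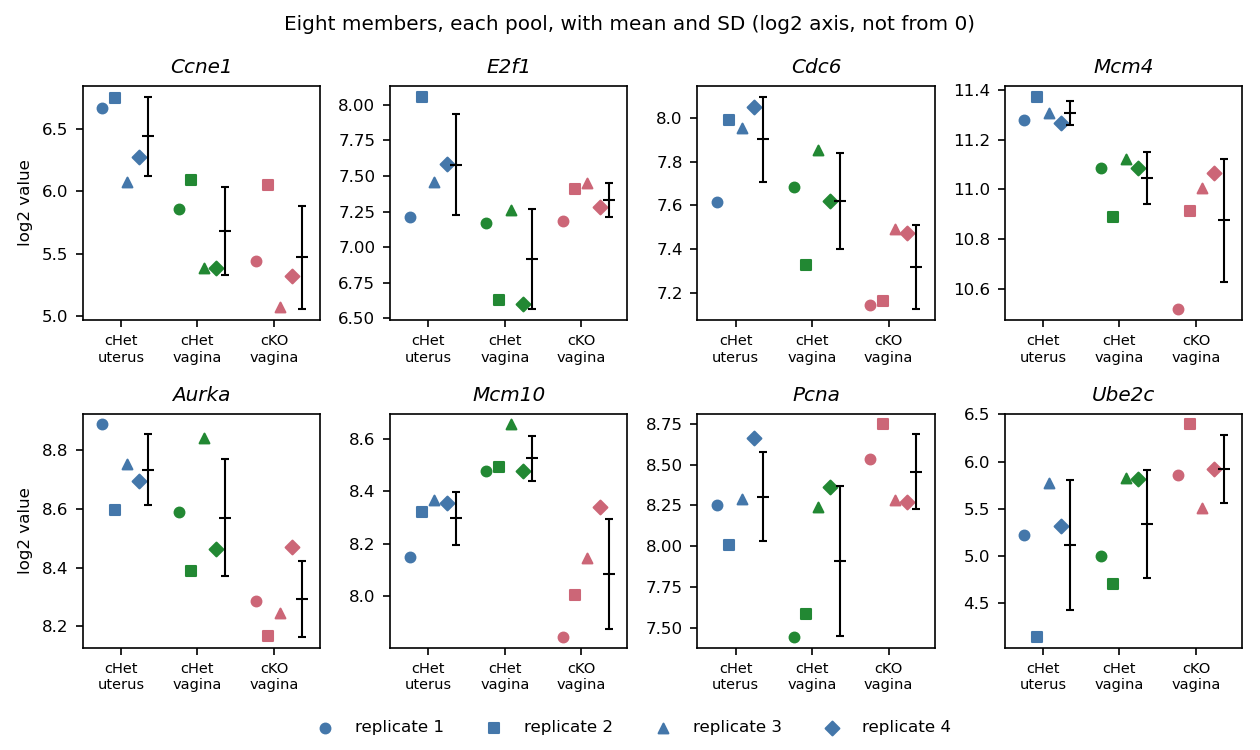
Log2 value in each pool of 8 genes, with the group mean and SD beside the points; marker shapes give the replicate number and each panel has its own log2 axis, which does not start at 0. Ccne1, Cdc6, Mcm4 and Aurka are lower in every cKO pool than in every uterus pool, and the vaginal groups of Pcna differ in replicates 1 and 2 and not in 3 and 4.

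Cdk1 encodes the kinase that drives entry into mitosis. It measured 10.99, 9.90, 10.35 and 10.23 in the cHet uterus, 9.84, 10.45, 10.03 and 10.08 in the cHet vagina and 10.74, 10.64, 9.90 and 10.21 in the cKO vagina. Its values ranged widely within each group and overlapped between all of them, with a cKO against cHet vagina interval of -0.21 to 0.76. Ccna2, of cyclin A2, measured 6.18, 5.91, 6.01 and 6.62 in the cHet uterus, 6.08, 5.65, 6.005 and 6.57 in the cHet vagina and 6.68, 6.58, 6.13 and 6.38 in the cKO vagina. Foxm1, of a transcription factor of mitotic genes, measured 6.71, 6.46, 5.69 and 6.40 in the cHet uterus, 6.59, 6.61, 6.35 and 6.07 in the cHet vagina and 6.03, 6.59, 6.46 and 6.27 in the cKO vagina. Neither was called, and the largest difference between group means of either was 0.37, for Ccna2 in the cKO against the cHet vagina (95% interval -0.06 to 0.79, adjusted p = 0.791).

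Calls covered 0.386% of all genes between the vaginal groups, 18.6% for the cHet vagina and 18.4% for the cKO vagina against the uterus. Of the 7 tested genes of mitotic kinases and the spindle checkpoint, Aurka alone was called, in the last of these comparisons. It encodes Aurora A, the kinase of centrosome maturation and spindle assembly, and measured 8.89, 8.60, 8.75 and 8.70 in the cHet uterus, 8.59, 8.39, 8.84 and 8.46 in the cHet vagina and 8.29, 8.17, 8.25 and 8.47 in the cKO vagina. The 4 cKO pools were below the 4 uterus pools, and the cHet vagina spanned both. The cKO vagina was lower than the uterus by -0.44 (SE 0.14, limma adjusted p = 0.0316, 1.36-fold), while its difference from the cHet vagina was -0.28 (95% interval -0.57 to 0.01, adjusted p = 0.742). Aurka lost this call on leaving out uterus replicate 1, 3 or 4 (adjusted p = 0.0844, 0.0698 and 0.0576) or cKO replicate 1, 2 or 3 (0.0634, 0.0862 and 0.0724), and with the authors' scaling alone (-0.25, adjusted p = 0.295); without those pools the differences were from -0.45 to -0.39.

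Aurkb and Birc5 encode Aurora B and survivin, members of the chromosomal passenger complex. Aurkb measured 8.34, 8.14, 8.05 and 8.28 in the cHet uterus, 7.94, 8.93, 7.88 and 8.32 in the cHet vagina and 8.15, 8.50, 8.03 and 8.05 in the cKO vagina. It was high in replicate 2 of both vaginal groups, as Mcm2 was. Birc5 measured 10.22, 9.78, 10.12 and 10.18 in the cHet uterus, 9.73, 9.98, 9.995 and 10.37 in the cHet vagina and 9.92, 9.81, 9.87 and 10.22 in the cKO vagina. Its intervals were among the narrower ones, with -0.40 to 0.27 for the cKO against the cHet vagina. Plk1, of the Polo kinase of mitosis, measured 8.13, 8.71, 8.10 and 8.08 in the cHet uterus, 8.94, 8.69, 8.26 and 8.39 in the cHet vagina and 8.30, 8.47, 8.34 and 8.32 in the cKO vagina. One uterus pool, replicate 2, was far above the other uterus pools and level with the cHet vagina. The remaining genes of this role, Bub1b and Ttk of the checkpoint and Plk4 of centriole duplication, differed by between -0.25 and 0.26.

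Of the 8 tested genes of chromosomes, kinetochore and spindle, 0 were called in any comparison. The shares over all genes were 0.386% between the vaginal groups, 18.6% for the cHet vagina and 18.4% for the cKO vagina against the uterus. Top2a encodes topoisomerase II alpha, which untangles sister DNA. It measured 10.57, 10.24, 10.11 and 10.28 in the cHet uterus, 9.78, 10.53, 9.74 and 10.11 in the cHet vagina and 10.02, 10.43, 10.18 and 10.22 in the cKO vagina. Pools of all groups overlapped and the interval between the vaginal groups was -0.20 to 0.55. Cenpa, of the centromeric histone H3 variant, measured 11.58, 11.98, 11.91 and 11.87 in the cHet uterus, 12.21, 11.95, 12.000 and 12.15 in the cHet vagina and 11.61, 11.39, 11.85 and 12.12 in the cKO vagina. Replicate 2 of the cKO vagina was its lowest pool, and the vaginal groups differed by -0.34 (95% interval -0.68 to 0.00, adjusted p = 0.709). Nusap1, of a microtubule-bundling spindle protein, was lower in every cKO than in every cHet vagina pool, but not past the test (-0.28, adjusted p = 0.775), and its 3 kept probes disagreed, with the others at 0.38 and -0.07. Ndc80 of the kinetochore, Tpx2 of spindle assembly and the kinesin genes Kif4, Kif11 and Kif23 differed by between -0.29 and 0.14.

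Neither of the 2 tested genes of mitotic exit was called. Beside 0.386% of all genes called between the vaginal groups, 18.6% for the cHet vagina and 18.4% for the cKO vagina against the uterus, 0 of 2 does not set the role apart. Cdc20 encodes the activator of the anaphase promoting complex in mitosis. It measured 9.24, 9.86, 9.67 and 9.66 in the cHet uterus, 10.06, 10.002, 9.77 and 9.72 in the cHet vagina and 9.65, 9.70, 9.89 and 9.84 in the cKO vagina. Uterus replicate 1 was its lowest pool, and the difference of the cHet vagina from the uterus was 0.28 (95% interval -0.03 to 0.60, adjusted p = 0.234). Ube2c, of the ubiquitin-conjugating enzyme of that complex, had the widest spread within groups of the 42 genes, and its values are given for that reason. It measured 5.22, 4.15, 5.78 and 5.32 in the cHet uterus, 4.999, 4.71, 5.83 and 5.82 in the cHet vagina and 5.86, 6.40, 5.51 and 5.92 in the cKO vagina. Its lowest value, in uterus replicate 2, was not above background. The cKO vagina differed from the uterus by 0.81 (95% interval 0.13 to 1.48, limma adjusted p = 0.0970), which was 1.44 within replicates 1 and 2 and 0.17 within replicates 3 and 4. Ube2c passed the test higher in the cKO vagina with the authors' scaling alone (adjusted p = 0.0419), in replicates 1 and 2 alone (0.00605), with replicates 1 and 2 blocked against 3 and 4 (0.0466) and without uterus replicate 3 (1.03, adjusted p = 0.0412).

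Other genes of the cycle were read from 5 further lists. In the cKO against the cHet vagina, 0 genes were called in any of them, of 32 replication genes, 36 mitosis genes, 9 genes of G1 cyclins and kinases, 12 genes that brake the cycle and 11 of the anaphase promoting complex. With 0.386% of all genes called in that comparison, 0 calls in lists of this size do not set them apart. The organ comparisons called members in 4 of the 5 lists. Of the 32 further replication genes, 2 were lower in the cHet vagina than in the uterus, Orc3 (-0.59, adjusted p = 0.0252) of the origin recognition complex and Rfc1 (-0.41, adjusted p = 0.0464) of the clamp loader. In the cKO vagina against the uterus 5 were lower and 0 higher. Of all genes, 9.16% and 9.44% were lower in these comparisons and 9.44% and 8.92% higher. These were Orc3 (-0.79), Gins3 (-0.72), Cdc7 (-0.61), the kinase that fires origins, Rfc1 (-0.49) and Gins4 (-0.37), with limma adjusted p between 0.00372 and 0.0383. The median difference of this list against the uterus was -0.077 for the cHet and -0.127 for the cKO vagina. Gins4 was named after its values were seen. Of these 7 calls 5 were lost on leaving out single pools. This ended that of Orc3 in the cHet vagina in 5 cases (uterus replicates 2, 3 or 4 and vagina replicates 2 or 4, adjusted p up to 0.0836) and that of Cdc7 in 5 (uterus replicates 2 or 3 and cKO replicates 1, 2 or 3, up to 0.0994). Rfc1 kept its call in the cHet vagina in 2 of 12 such fits (adjusted p up to 0.119, without uterus replicate 2) and in the cKO vagina in all but those without uterus replicate 2 (0.0566) or cKO replicates 1 (0.0561) or 3 (0.0567), and Gins4 kept its call in 4 of 12 (up to 0.112, without uterus replicate 2). Orc3 and Gins3 in the cKO vagina kept their calls in all 12. With no background subtracted, the differences of Orc3 shrank to -0.36 and -0.47 and that of Gins3 to -0.39, with their calls kept. With the authors' scaling alone, Orc3 in the cKO vagina kept its call and the other 6 were lost (adjusted p from 0.0572 to 0.187).

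Of the 36 further mitosis genes, 1 was called higher and 1 lower in each organ comparison. Of all genes, 9.44% were higher and 9.16% lower in the cHet vagina, and 8.92% higher and 9.44% lower in the cKO vagina. Spc25, of the Ndc80 complex, was higher in the vagina of both genotypes. It measured 9.61, 8.88, 9.11 and 9.13 in the cHet uterus, 9.67, 9.85, 10.003 and 9.75 in the cHet vagina and 10.48, 10.24, 9.92 and 10.21 in the cKO vagina. No vaginal pool reached down to the uterus range. The log2 difference from the uterus was 0.63 for the cHet (adjusted p = 0.0123) and 1.03 for the cKO vagina (adjusted p = 0.000269), with 0.40 between the vaginal groups (adjusted p = 0.607). Zwint, of a kinetochore protein, was lower in the cHet vagina (-0.37, adjusted p = 0.0426) and Cdca5, of the cohesion factor sororin, in the cKO vagina (-0.53, adjusted p = 0.0284). The mean of its kept probes gave Zwint a difference of -0.12 (adjusted p = 0.601), and its call was kept in 2 of 12 fits with 1 pool left out (adjusted p up to 0.107, without vagina replicate 2). That of Cdca5 was lost with the authors' scaling alone (-0.25, adjusted p = 0.354) and without uterus replicate 1, 2 or 3 (0.0594, 0.0596 and 0.0844) or cKO replicate 1 or 4 (0.0867 and 0.0631). The APC list had 0 calls in all 3 comparisons. Shares over all genes were 0.386% between the vaginal groups, 18.6% for the cHet vagina and 18.4% for the cKO vagina against the uterus. Anapc5, taken as its example, differed by between -0.01 and 0.03.

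Of the genes of D-type cyclins, all 3 were called between the cHet vagina and the uterus, 2 higher and 1 lower in the vagina. Of 6 tested genes of inhibitors of cyclin-dependent kinases, 3 were called there, also 2 higher and 1 lower. No other gene was called there among the 9 tested of the G1 list and the 12 tested that brake the cycle. Of all genes, 18.6% were called in this comparison in either direction. Ccnd1 encodes cyclin D1 and measured 10.46, 10.88, 10.78 and 10.97 in the cHet uterus, 11.62, 11.54, 11.61 and 11.45 in the cHet vagina and 11.18, 11.21, 11.64 and 11.68 in the cKO vagina. Every vaginal pool was above every uterus pool, by 0.78 for the cHet (SE 0.15, limma adjusted p = 0.00146) and 0.65 for the cKO vagina (adjusted p = 0.00609). Ccnd2, of cyclin D2, measured 10.67, 10.92, 10.67 and 11.01 in the cHet uterus, 11.76, 11.77, 11.73 and 11.29 in the cHet vagina and 11.11, 10.26, 11.09 and 11.21 in the cKO vagina. It was higher in the cHet vagina than in the uterus (0.82, adjusted p = 0.00642), while the cKO pools overlapped the uterus (0.10, adjusted p = 0.793). All cKO pools were below all cHet vagina pools of Ccnd2, a difference of -0.72 (95% interval -1.13 to -0.30, adjusted p = 0.186) that did not pass.

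Ccnd3, of cyclin D3, ran the other way and measured 11.23, 11.37, 10.79 and 10.63 in the cHet uterus, 10.68, 10.37, 10.30 and 10.11 in the cHet vagina and 10.18, 10.40, 10.21 and 9.997 in the cKO vagina. It was lower than the uterus by -0.64 in the cHet (adjusted p = 0.0168) and -0.81 in the cKO vagina (adjusted p = 0.00349). The first of these calls was lost without uterus replicate 1 (adjusted p = 0.0537) or 2 (0.0596) or vagina replicate 4 (0.0590). The mean of the kept Ccnd3 probes gave smaller differences, -0.37 and -0.38, both past the test. Of 9 tested genes of the G1 list, 2 were higher and 1 lower in the cHet vagina than in the uterus, and 1 higher and 1 lower in the cKO vagina, where 18.6% and 18.4% of all genes were called.

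Among the inhibitors, Cdkn1a, of p21, an inhibitor of several cyclin kinases, measured 5.21, 5.32, 5.42 and 5.65 in the cHet uterus, 6.92, 7.62, 7.16 and 6.73 in the cHet vagina and 7.77, 7.41, 6.94 and 6.57 in the cKO vagina. Its vaginal pools were all above the uterus pools, 3.27-fold in the cHet (1.71, SE 0.24, limma adjusted p = 5.47e-05) and 3.41-fold in the cKO vagina (1.77, adjusted p = 4.30e-05), with 0.06 between the vaginal groups (95% interval -0.44 to 0.56). With no background subtracted the 2 differences from the uterus were 0.94 and 0.99, and the mean of the kept probes gave 0.98 and 0.99. Cdkn2b, of p15, an inhibitor of the kinases of cyclin D, measured 4.57, 5.13, 4.83 and 4.69 in the cHet uterus, 6.70, 7.37, 6.67 and 6.27 in the cHet vagina and 6.13, 6.05, 5.69 and 5.76 in the cKO vagina. The 3 groups did not overlap, with the uterus lowest and the cHet vagina highest. Against the uterus the difference was 1.95 for the cHet (adjusted p = 3.28e-06) and 1.10 for the cKO vagina (adjusted p = 0.000916). Between the vaginal groups it was -0.84 (95% interval -1.27 to -0.41, adjusted p = 0.118), which did not pass. With no background subtracted, the differences from the uterus were 0.92 and 0.44, both past the test. The difference between the vaginal groups did pass without cHet vagina replicate 4 (-1.002, adjusted p = 0.0436) and with replicates 1 and 2 blocked against 3 and 4 (adjusted p = 0.0254).

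Cdkn1c, of p57, a further inhibitor, was in contrast highest in the uterus. It measured 12.79, 12.88, 12.74 and 12.77 in the cHet uterus, 11.90, 11.73, 12.03 and 12.06 in the cHet vagina and 12.18, 12.75, 12.64 and 12.21 in the cKO vagina. The cHet vagina was below every other pool, and the cKO vagina lay between, with replicates 2 and 3 close to the uterus. The cHet vagina was lower than the uterus by a log2 difference of -0.86 (SE 0.15, limma adjusted p = 0.000479), and the cKO vagina differed from the cHet vagina by 0.51 (95% interval 0.19 to 0.83, adjusted p = 0.239). Of 12 tested genes that brake the cycle, 2 were higher and 1 lower in the cHet vagina than in the uterus, and 2 higher and 0 lower in the cKO vagina, against 18.6% and 18.4% of all genes called in either direction. The other 3 tested inhibitor genes, Cdkn1b of p27, Cdkn2c of p18 and Cdkn2d of p19, differed by between -0.05 and 0.24 in the 3 comparisons and were not called.

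**Figure D5:**
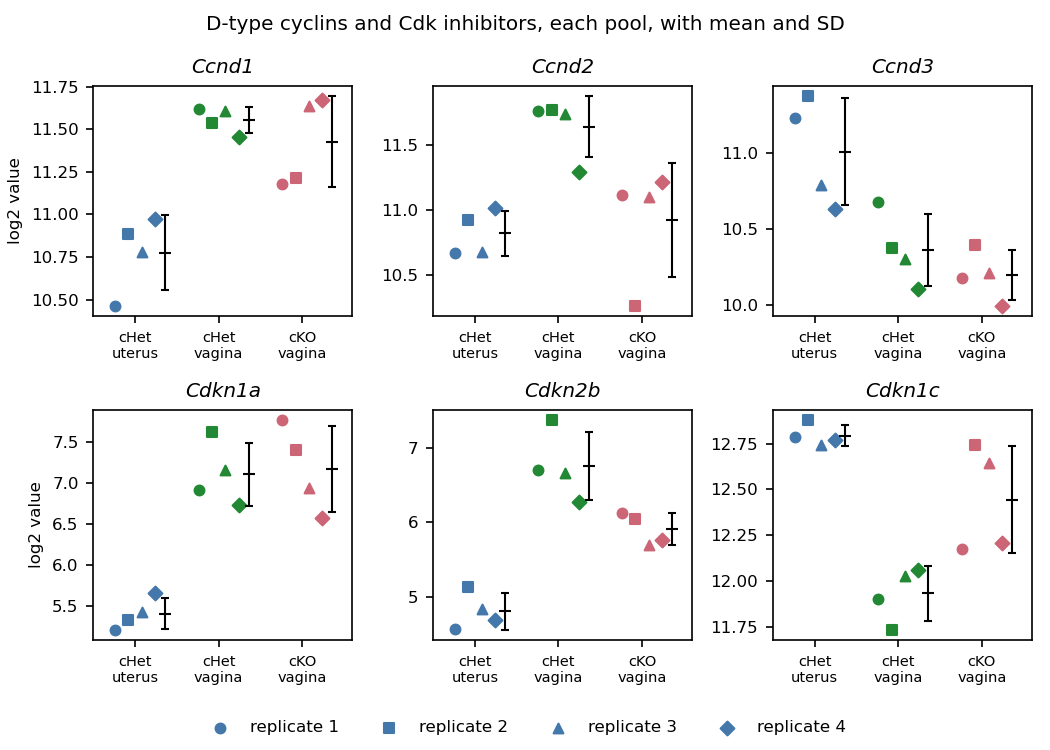
Log2 value in each pool of 3 D-type cyclin genes and 3 genes of cyclin kinase inhibitors, with the group mean and SD; marker shapes give the replicate number and axes do not start at 0. Cdkn1a and Cdkn2b are higher in every vaginal than in every uterus pool, and Cdkn1c is lowest in the cHet vagina.

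Markers of other cell types also differed between the groups. For scale, 0.386% of all genes were called between the vaginal groups. The share was 18.6% between the cHet vagina and the uterus and 18.4% between the cKO vagina and the uterus, in either direction. A single call in so short a list is not read as a difference of its cell type. The deletion itself could not be checked, since the position of the 2 Trp63 probes relative to the floxed part is not given. The log2 value of the kept probe was between 4.52 and 4.75 in the uterus, 9.36 and 9.75 in the cHet vagina and 9.07 and 9.91 in the cKO vagina. The other probe was above background on 3 arrays and lay between 4.13 and 4.50 over all groups. All 6 stratified epithelium markers were lower in the cKO than in the cHet vagina, 3 of them past the test, with mean centred values of 1.27 to 2.24 in the cHet and -1.28 to 0.59 in the cKO pools. Against the uterus, 6 of 6 were higher in the cHet vagina past the test, as were 6 of 7 simple epithelium markers, while 3 of 4 endothelium and 2 of 2 mesothelium markers were lower. Of 5 smooth muscle markers 2 were higher and 1 lower, and of 4 urothelium markers 3 were higher and 1 lower. In the same comparison 1 of 7 mesenchyme markers was higher, and 1 of 4 leukocyte and 1 of 3 red blood cell markers were lower. Between the cKO vagina and the uterus, 2 of 6 stratified and 6 of 7 simple epithelium, 3 of 7 mesenchyme, 2 of 5 smooth muscle, 3 of 4 urothelium and 1 of 5 skeletal muscle markers were higher, and 4 of 4 endothelium, 2 of 2 mesothelium, 1 of 5 smooth muscle, 1 of 4 urothelium and 1 of 4 leukocyte markers were lower. The urothelium marker Upk2 was also lower in the cKO than in the cHet vagina. The vaginal markers Hoxa13, Hoxd13 and Isl1 were 3 of 3 higher in the vagina of either genotype than in the uterus. Of 2 tested uterus markers, 1 was lower in the vagina of either genotype. The 3 pools with the lowest mean of the 42 genes, cKO vagina replicates 1 and 3 and cHet vagina replicate 1, had the highest mean of the 5 skeletal muscle markers (0.879, 2.001 and 1.006, with -0.745 to 0.237 in the other 9 pools). In cKO vagina replicate 3 the 3 red blood cell markers were high as well (2.23). These lists were picked out among all marker lists by their values, and any link to the mean of the 42 genes was not tested. Ddx4, Dazl, Zp3, Amh and Foxl2 of ovary and germ cells were above background on at most 1 array per group. The part of these cell types in the differences of Ccne1, E2f1, Cdc6, Mcm4, Aurka and the G1 genes was not tested.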

How the data were processed

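Arrays held 45281 probes. The deposited value table gives 1 linear intensity per probe and array as processed by the authors, with column means between 248.25 and 252.22, which points to a scaling whose method the sources used here do not give. A further 24 columns of per-sample values were left aside because their names fit no label, so the background correction could not use detection p-values.

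The background of an array was taken as the mode of its intensities (69.2 to 90.7), with an SD (2.30 to 2.73) from the values below the mode. From these, normexp (limma 3.58.1, R 4.3.3) corrected the intensities; an offset of 16, quantile normalization and log2 followed. Probes were kept that exceeded the level under which 99% of background lies on at least 4 of 12 arrays, which left 20675 probes, 17617 of them with 1 gene symbol (platform annotation; 82 of the 99 probes of the listed genes). Between 39.3% and 45.4% of probes were above background per array; precision is limited by the number of arrays. A gene was read from its probe of highest mean; 20 of the 42 genes had several kept probes, and these shared 1 sign in 11, 8 and 15 of 20 genes in the comparisons of cKO with cHet vagina, cHet vagina with uterus and cKO vagina with uterus.

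The limma fit (lmFit, eBayes) held all 12 arrays with no block (15.8 degrees of freedom at the median), two-sided, with Benjamini-Hochberg adjustment over 11152 genes and a call at 0.05. Confidence intervals are at 95%. The design text calls the samples of a group independent, and p-values measure the spread between pools. Alternatives varied background, scaling, filter, choice of probe, blocks, array weights and the pools left out.

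The genes, further lists and markers were chosen with earlier results of these data known. Pool values are given for the called ones of the 42 genes and for Top2a, Ccna2, Ccne1, Ccne2, Cdk1, Cdc20, Cdc6, Cdt1, Mcm2, Mcm5, Mcm10, Cdc45, Pcna, Rrm2, Tyms, Aurkb, Plk1, Birc5, Cenpa, E2f1 and Foxm1 in any case. Each further list is shown by up to 4 called genes of largest change, or by its brightest gene where it has no call. Ube2c, Tk1, Nusap1 and Gins4 were added after their values were seen, as was the choice of printed windows.

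Replicate numbers run from 1 to 4 in each group. Same-numbered uterus and cHet vagina pools deviated together from their group means (r of 0.117 to 0.431 across genes), with 4 of 4 pairs over 0.1, against 3 of 4 in the other comparisons. Of these 8 pools 4 matched their own number best, while replicates 1 and 2 matched each other's number. The cHet and cKO vagina also had 4 of 8 own-number matches, with r of 0.0662 to 0.491. The uterus and cKO vagina had 3 of 8, with r of 0.0742 to 0.309. The labels do not explain the numbers. The fit reported here has no block, and the replicate block is an alternative.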

Additional observations from a re-analysis of the deposited data

Results flagged for a closer look

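In 8 of 123 groups of 4 pools (41 genes in 3 groups), 1 pool lay so far from the other 3 that the gap took up more of the range than Dixon's critical value at 95% allows, which chance alone gives in about 1 in 20 groups. Mcm2 was 9.10 in cKO vagina replicate 2 and 8.26 to 8.29 in the other cKO pools. Mcm10 was 8.66 in cHet vagina replicate 3 and 8.48 to 8.49 in the others. Plk1 was 8.71 in cHet uterus replicate 2 and 8.08 to 8.13 in the others. Mcm4 was 10.89 in cHet vagina replicate 2 and 11.09 to 11.12 in the others. Among the genes outside the 42, Gins3 was 6.24 in cKO vagina replicate 2 (others 5.73 to 5.81), Ccnd2 was 11.29 in cHet vagina replicate 4 (11.73 to 11.77) and 10.26 in cKO vagina replicate 2 (11.09 to 11.21), and Anapc5 was 11.59 in cHet uterus replicate 1 (11.79 to 11.80). All are log2 values. Of the 8 pools, 3 are cKO vagina replicate 2.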

How the results depend on the processing

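Over the genes and settings tried, no called difference changed sign. With the authors' scaling alone the median difference of the 42 genes became -0.0451 (cHet vagina against uterus), 0.0194 (cKO vagina against uterus) and 0.0649 (cKO against cHet vagina), and 1 gene (E2f1), 2 genes (Ccne1 lower, Ube2c higher) and 0 genes were called. Every kept probe on its own gave a median of -0.0594 for the cHet vagina against the uterus. With no filter, 0 of the genes were called there, where more features are tested. Replicates 1 and 2 alone called 0 genes for the cHet vagina against the uterus, 2 for the cKO vagina against the uterus (Ccne1 lower, Ube2c higher) and 1 for the cKO against the cHet vagina (Pcna), and replicates 3 and 4 alone called 1 (Ccne1), 2 (Ccne1 and Cdc6) and 0, with fewer samples.

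Over all genes, replicates 1 and 2 alone gave 1332 calls for the cHet vagina against the uterus and 1311 for the cKO vagina against the uterus. For the cKO against the cHet vagina, where 43 genes were called, the count was 27 with no filter, 25 with probes above background on all arrays, 77 with the replicate block, 94 with a block of the sets of replicates, 72 in replicates 1 and 2 alone and 14 in replicates 3 and 4 alone. The replicate block left the calls among the 42 genes as they were in all 3 comparisons (0, 2 and 4), and of the named genes it changed that of Cdkn2b alone, which passed for the cKO against the cHet vagina (0.0219 against 0.118).

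Leaving out 1 pool gave 1755 to 2119 calls over all genes for the cHet vagina against the uterus, 1745 to 2084 for the cKO vagina against the uterus and 21 to 46 for the cKO against the cHet vagina, with 21 without cHet vagina replicate 1, and 23 without cHet vagina replicate 2 or without cKO vagina replicate 1. Among the 42 genes it gave 0 to 2, 2 to 4 and 0 calls, and medians of -0.164 to -0.0802, -0.230 to -0.107 and -0.136 to 0.00584, the last of these without cKO vagina replicate 1. Differences of dim probes with signal close to background, such as those of Ccne1, Ube2c, Cdkn1a and Cdkn2b, were smaller where no background was subtracted. The cause of these and of the other shifts was not tested.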
